A study of Astatotilapia calliptera and Haplochromis burtoni and Pundamilia nyererei with 40 samples.

Results

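Messenger RNA of male and female brain was compared in Astatotilapia calliptera (AC), a haplochromine cichlid of the Lake Malawi radiation. The comparison uses 6 of the 40 libraries of the series, 3 of AC male brain and 3 of AC female brain, chosen by their labels alone. The libraries of the series come from gonads of African cichlids and from AC brain, and those used here were made by directional sequencing of messenger RNA captured on its poly(A) tail. All animals of these groups were wild-type fish kept in aquaria, their ages were not given in the sources used here, and brain RNA came from pieces of frozen tissue of size-matched fish and not from whole brains. AC testes (4 libraries) and AC ovary (4 libraries) were used beside the brains, and they were prepared elsewhere from the brain libraries. The day and the hour at which each brain was taken are not given in the sources used here.

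The fish brain keeps radial glia through adult life, and many of its sex differences are known from the hypothalamus and the preoptic area, where the neurons that make oxytocin, vasopressin and the releasing hormones lie. The pituitary hangs below the hypothalamus and the dorsal trunk muscle ends at the back of the skull, so both lie next to the brain when it is taken out. In most fish tissues, and in brain in particular, period and cryptochrome genes form the repressive arm of a daily clock whose transcript levels move with the hour and with light.

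The brain libraries held between 6728130 and 19685495 counts, and 17305 to 18189 genes reached 1 TPM (a transcript abundance scaled by transcript length and by library size) in each. Pairs of brain libraries correlated at r between 0.892 and 0.967 across the genes tested, which is a correlation across genes. Female brain 1 gave the lowest of these values, none above 0.922 with any other brain, whereas the other 5 libraries correlated at 0.9415 or more with each other. The neuronal gene snap25a, which encodes a synaptic fusion protein, had 3477, 4167 and 4346 TPM in male brains, against 3785, 4361 and 4420 TPM in female brains. Its mean was 0.462 TPM in testes and 1.04 TPM in ovary, so the labelled tissue holds its defining marker.

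2 libraries stood out, 1 in pituitary and 1 in muscle transcripts, and the source of these transcripts was not tested. Male brain 1 had 47937 TPM summed over the 15 pituitary hormone genes in the table, while male brains 2 and 3 had 17.5 and 29.4 TPM and female brains 1, 2 and 3 had 20.9, 12.7 and 63.7 TPM. Female brain 1 had 2664 TPM over 12 genes of skeletal muscle, against 62.6 and 21.6 TPM in female brains 2 and 3, and 46.1, 30.5 and 24.2 TPM in male brains 1, 2 and 3. Both libraries carry the number 1, and some counts below are also given without both of them, a choice made after seeing the data. In bulk tissue, fewer cells of a type and less RNA per cell cannot be told apart.

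The most abundant transcripts included those of ribosomal proteins, of myelin and of the synapse. The 20 most abundant genes took between 12.7% and 15.0% of all TPM in each library. rpl39, a small protein of the large ribosomal subunit, was first with 39925, 42281 and 34862 TPM in male brains and 31657, 32624 and 33356 TPM in female brains. Of the 20 genes, 8 encode ribosomal proteins, among them rpl36a with a mean of 6654 TPM over the 6 brains, rpl32 with 6226 TPM and rps15a with 5218 TPM. mbpa, the myelin basic protein of oligodendrocytes, had 3581, 7634 and 7123 TPM in male brains and 3635, 4864 and 4695 TPM in female brains. The 2 lowest mbpa values were those of male brain 1 and female brain 1. In gonads mbpa was nearly absent, with means of 0.291 TPM in testes and 0.0794 TPM in ovary.

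Other abundant genes were ptmab (a mean of 6240 TPM over the 6 brains), which encodes prothymosin alpha, tmsb2 (6226 TPM), an actin-sequestering thymosin, cirbpb (4922 TPM), a cold-inducible RNA-binding protein, fth1a (4123 TPM), the heavy chain of the iron store ferritin, and rtn1b (3360 TPM), a reticulon of the endoplasmic reticulum. fth1a was among the most even of them, with 3895, 3945 and 4370 TPM in male brains and 3950, 4307 and 4275 TPM in female brains. HBE1 (ENSACLG00000007738), a globin of red blood cells, had 2962, 3015 and 4041 TPM in male brains, against 1426, 4886 and 4087 TPM in female brains. The genes wu:fi09b08, ENSACLG00000000835, ENSACLG00000022319 and ENSACLG00000025044 also stood among the 20, with means of 4791, 10479, 4604 and 3307 TPM, and ENSACLG00000022319 was near absent from gonads (10.7 TPM in testes and 9.57 TPM in ovary). Abundance here is per transcript length. On CPM (counts scaled to library size), which favour long transcripts, 3 of these 20 genes stayed among the first 20.

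No gene passed the test between male and female brain. edgeR's quasi-likelihood test, run on 17198 genes with 3 brains of each sex, called 0 genes at an adjusted p under 0.05 (0%). Its lowest adjusted p was 0.489. At an unadjusted p under 0.05 there were 438 genes higher in male brain (2.55% of those tested) and 727 lower in male brain (4.23%). DESeq2 called 10 genes higher in male brain (0.0468% of the 21350 with an adjusted p) and 29 lower (0.136%), whereas limma-voom, added after the data were seen, called 0 with 1241 genes at an unadjusted p under 0.05. All 39 genes of DESeq2 had sexes that did not overlap in TPM, and 37 of them were tested in edgeR and had an unadjusted p under 0.05 there. Without male brain 1 and female brain 1, edgeR again called 0 genes, with 1786 at an unadjusted p under 0.05, and DESeq2 called 110, of which 21 were among the 39.

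In the main fit the lower side was the fuller one, with 438 genes higher and 727 lower at an unadjusted p under 0.05. Without male brain 2 these numbers were 336 and 376, and without male brain 3 they were 381 and 399. In the fit of all 14 libraries of brain and gonads the higher side was the fuller one, at 374 against 190. All other alternatives run had more genes lower than higher. Among the 17198 genes, 1882 were lower in all 3 male brains than in any female brain (10.9%) and 757 were higher in all 3 (4.4%). Without both libraries numbered 1, 4631 were lower (26.9%) and 2657 higher (15.4%) in both remaining male brains. This split was uneven with transcript length. With the genes cut into 5 equal classes by transcript length, 13.3% of the class with the longest transcripts lay lower in every male brain and 2.62% higher, against 9.53% lower and 4.97% higher in the class with the shortest. The median log2 fold change was -0.02 in the longest class and -0.00 in the shortest. The part of transcript length in the counts below was not tested.

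The genes with the lowest p on the lower side included 2 of the clock's period genes. per1b had 55.0, 52.6 and 51.2 TPM in male brains, against 150.2, 116.5 and 123.1 TPM in female brains. Its log2 fold change was -1.24 ± 0.16 (SE), with an adjusted p of 0.626 in edgeR and 7.05e-07 in DESeq2. per3 had 87.3, 98.5 and 88.5 TPM in male brains and 248.4, 174.1 and 193.2 TPM in female brains, a log2 fold change of -1.14 ± 0.17 with an adjusted p of 0.734 in edgeR. In both genes the 3 male brains lay within a narrow band and every female brain lay well above it.

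The other 3 genes of that side act in RNA binding, chromatin and the cytoskeleton. prrc2c, which encodes an RNA-binding protein, had 4.03, 4.32 and 4.06 TPM in male brains, against 11.4, 9.90 and 9.41 TPM in female brains (log2 fold change -1.27 ± 0.15, edgeR adjusted p 0.489). srcap, the ATPase of a chromatin remodelling complex, had 11.1, 12.4 and 11.1 TPM in male brains and 22.8, 19.3 and 21.7 TPM in female brains (log2 fold change -0.85 ± 0.12, edgeR adjusted p 0.734). MACF1, a protein that links microtubules to actin, had 19.6, 21.1 and 22.2 TPM in male brains and 34.6, 37.5 and 32.8 TPM in female brains (log2 fold change -0.70 ± 0.11, edgeR adjusted p 0.734). Further genes lower in male brain in DESeq2, picked out after their values were seen, were the chromatin gene arid1ab (log2 fold change -0.61 ± 0.11 in edgeR), the kinesin kif1b (-0.64 ± 0.12), the silencing factor tnrc6b (-0.87 ± 0.14) and the neuronal membrane glycoprotein GPM6A (-0.66 ± 0.11).

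On the higher side, the gene with the lowest p was si:dkey-238d18.5 (ENSACLG00000000046), for which no function is given here. si:dkey-238d18.5 had 13.1, 9.86 and 12.3 TPM in male brains, against 0.617, 0.704 and 1.39 TPM in female brains, a log2 fold change of 3.78 ± 0.37 with an adjusted p of 0.489 in edgeR and 1.47e-12 in DESeq2. fabp7a, the brain fatty acid-binding protein of radial glia, had 44.1, 46.2 and 51.9 TPM in male brains and 22.1, 21.7 and 20.9 TPM in female brains (log2 fold change 1.23 ± 0.14, edgeR adjusted p 0.489). Its transcript was not confined to brain, with 33.5 to 50.5 TPM in testes and 6.28 to 12.5 TPM in ovary. ENSACLG00000014810 had 176.8, 294.3 and 226.5 TPM in male brains and 62.7, 85.7 and 86.2 TPM in female brains (log2 fold change 1.65 ± 0.22, edgeR adjusted p 0.654). A second gene with the symbol si:dkey-238d18.5, ENSACLG00000000153, overlapped between the sexes, with 10.2, 12.3 and 1.15 TPM in male brains and 14.6, 10.4 and 8.69 TPM in female brains, and reads that fit both copies could be split between them. In the first copy, fabp7a and ENSACLG00000014810 the sexes did not overlap and male brain 1 did not stand out from the other male brains.

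**Figure D1:**
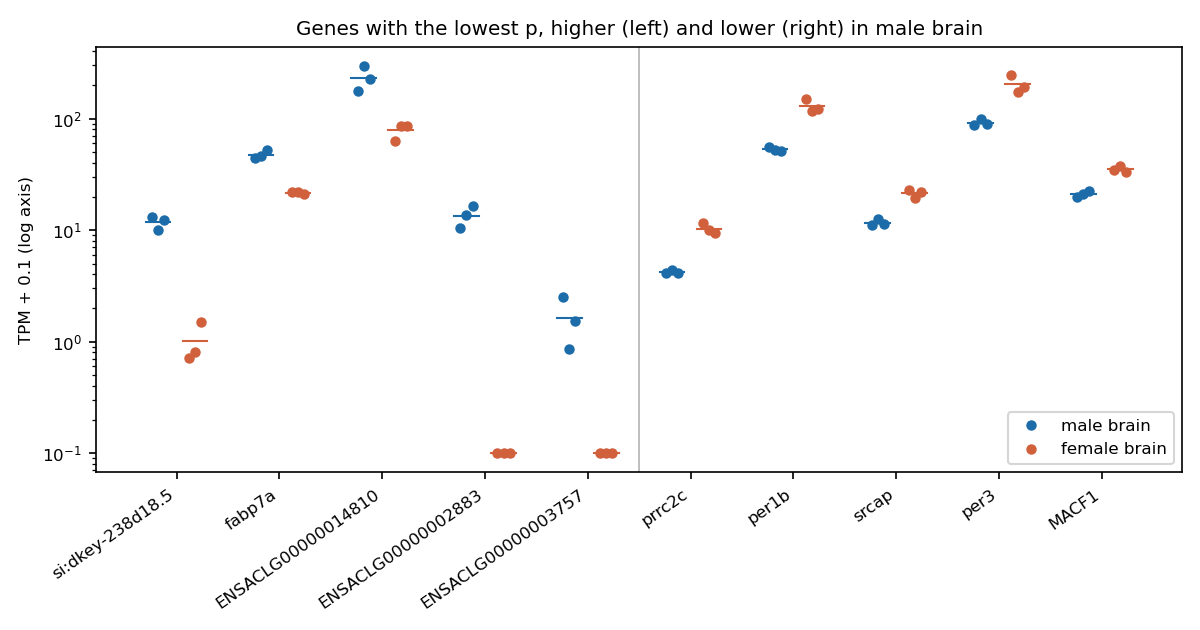
TPM (with 0.1 added, log axis) of the 5 genes with the lowest p in each direction. Points are single brains and short lines are group means, with male brain left and female brain right for each gene. In all 10 genes the 3 male brains lie on one side of the 3 female brains, and ENSACLG00000002883 and ENSACLG00000003757 are listed at 0 in every female brain, but none passes the edgeR test.

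The remaining 2 genes of the higher side, ENSACLG00000002883 and ENSACLG00000003757, had no count in any female brain. ENSACLG00000002883 had 17, 24 and 55 counts in male brains 1, 2 and 3 and 0 in each female brain, so that its level was at least 34.4-fold higher in male brain against a floor of 3 counts over the 3 female libraries. ENSACLG00000003757 had 37.5, 12.6 and 45.3 estimated counts in male brains and 0 in female brains, at least 37.8-fold higher. In the whole count data, 7 genes had 0 counts in every female brain and 5 or more in every male brain, and 0 genes had the reverse pattern. With the minimum lowered to any count above 0, the numbers were 44 genes found in males only and 33 in females only. These limits cover counting error only.

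The other 5 of the 7 genes were picked out by this pattern after their values were seen. magt1, a magnesium transporter subunit of the oligosaccharyltransferase, had 29.2, 13.6 and 13.1 estimated counts in male brains and 0 in female brains, at least 25.7-fold higher. NANS, a sialic acid synthase, had 10, 14 and 226 counts in male brains, and the last of these came from male brain 3 alone. ENSACLG00000026059 had 9.78, 10.7 and 17.1 counts in male brains. kpna7 is a nuclear import receptor of oocytes and early embryos. It had 5, 25 and 7 counts in male brains 1, 2 and 3, and ENSACLG00000022323 had 6, 15 and 5. Male brain 2 thus held the most counts of both genes. Both are very abundant in gonads, with 1160 to 1873 TPM and 1297 to 2085 TPM in testes, and 1034 to 1848 TPM and 1561 to 2222 TPM in ovary. The summed TPM of the gonad and germline list was 80.8, 99.3 and 118.9 in male brains and 90.1, 92.2 and 109.4 in female brains, and the sexes overlapped. Single genes outside that list were highest in male brain 2. ENSACLG00000001606 had 24.1 TPM there and at most 6.09 TPM in other brains, and org had 10.4 TPM against at most 2.61 TPM. Their means were 7378 and 2810 TPM in testes, and 8615 and 3822 TPM in ovary. Whether male brain 2 held gonad RNA was not tested.

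Testes and ovary give a reading of the same genes in other libraries. The gonad fit, with 4 libraries of each, called 2092 genes higher in testes (12% of 17500) and 1630 lower (9.31%) at an adjusted p under 0.05 in edgeR. Of the 10 genes with the lowest p in brain, 9 were tested there and 3 were called. ENSACLG00000014810 was higher in testes, with 11.3 to 17.8 TPM against 0.646 to 3.04 TPM in ovary (log2 fold change 2.78 ± 0.47, adjusted p 0.00414). ENSACLG00000002883 was higher in testes too, with 155.1 to 405.1 TPM against 0 to 42.5 TPM in ovary (log2 fold change 3.65 ± 1.02, adjusted p 0.0321), so its transcript was also counted in ovary. srcap went the other way than in brain, with 9.87 to 15.8 TPM in testes and 2.45 to 9.03 TPM in ovary (log2 fold change 0.94 ± 0.28, adjusted p 0.0424). Leaving out 1 gonad library at a time gave 1 to 5 called genes of the 10, 5 without ovary 1 and 1 without ovary 3, testes 1, testes 2 or testes 3. The libraries labelled testes also held oocyte genes at the level of ovary, such as bmp15, a growth factor of the oocyte, with 317.6 ± 61.5 TPM in testes and 357.6 ± 175.4 TPM in ovary (SD, n = 4 each), beside the sperm gene odf3b with 519.0 ± 377.4 TPM in testes and 1.13 ± 0.719 TPM in ovary. The part of this in the gonad calls was not tested.

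Clock genes were often lower in male brain, although edgeR called none of them. The hour at which each brain was taken is not given, so sex and hour cannot be told apart for clock genes. DESeq2 called 4 of those named here lower in male brain, with adjusted p of 7.05e-07 for per1b, 0.000172 for per3, 0.0166 for ciarta and 0.0249 for cry5. Over all genes it called 0.136% lower. The 44 names of the clock list matched 33 genes, all 33 were tested and 0 were called in edgeR. At an unadjusted p under 0.05, 13 were lower and 3 higher in male brain, against 4.23% and 2.55% over all genes. In 17 genes every male brain lay below every female brain and in 4 above, against 10.9% and 4.4% over all genes. The list's median log2 fold change was -0.49, against 0.00 over all genes tested. Its summed TPM was 1447, 1583 and 1374 in male brains, against 2310, 1726 and 1867 in female brains, which did not overlap (exact permutation test, two-sided, p = 0.1, the smallest that 3 against 3 allows; adjusted p = 0.733 over 22 lists). The list was chosen with earlier results of these data known. Without male brain 1 and female brain 1 the genes not overlapping numbered 19 lower and 5 higher of 33, against 26.9% lower and 15.4% higher over all genes in the same 4 libraries, so that the higher count was near the share of all genes. With any 1 library left out there were 17 to 19 clock genes lower, a count that leaving out a library cannot reduce. The count at an unadjusted p under 0.05 can fall. It ran between 9 and 14 with 1 library left out, against 13 with all brains, and was lowest without male brain 2. In that fit 376 of all 17758 genes were lower. In a fit of all 14 libraries of brain and gonads, 5 clock genes instead of 13 were lower at an unadjusted p under 0.05, against 190 of all 20893 genes.

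The 17 lower clock genes included some, but not all, of the period, cryptochrome and nuclear receptor genes. cry5, a photolyase in zebrafish, had 11.5, 12.2 and 11.3 TPM in male brains, against 27.3, 19.1 and 25.9 TPM in female brains (log2 fold change -0.97 ± 0.18). PER2 had 10.99, 15.04 and 12.22 TPM in male brains and 19.4, 19.6 and 22.6 TPM in female brains (-0.63 ± 0.13), while its second copy per2 overlapped between the sexes. ciarta, a repressor of the CLOCK and BMAL1 pair, had 4.498, 2.994 and 5.193 TPM in male brains and 9.032, 12.12 and 18.02 TPM in female brains (-1.52 ± 0.32). The nuclear receptor nr1d1 (log2 fold change -0.75 ± 0.21) and the helix-loop-helix repressor bhlhe41 (-0.72 ± 0.18) were lower in every male brain, as were cry3a (-0.49 ± 0.12), cry1a (-0.43 ± 0.20) and cry1b (-0.51 ± 0.21). In edgeR the adjusted p of all these genes was 0.734 or higher, while cry5 and ciarta were called in DESeq2.

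The 4 clock genes higher in every male brain include activators and repressors. rorcb, a nuclear receptor that activates the BMAL genes, had 179.2, 180.6 and 168.4 TPM in male brains and 151.0, 134.3 and 100.3 TPM in female brains (log2 fold change 0.51 ± 0.18, edgeR adjusted p 0.734). arntl2, a BMAL activator, had 20.67, 20.94 and 20.96 TPM in male brains, against 11.8, 17.7 and 17.1 TPM in female brains (0.48 ± 0.17). nfil3-5, which competes with the activators of output genes, had 27.0, 33.4 and 32.1 TPM in male brains and 15.61, 25.14 and 19.99 TPM in female brains (0.64 ± 0.19), and nr1d4b had 12.4, 11.1 and 12.2 TPM in male brains and 10.4, 9.28 and 6.70 TPM in female brains (0.50 ± 0.22). arntl1a and cry2 lay close to 0, with log2 fold changes of -0.01 ± 0.20 and -0.05 ± 0.13. The gonad values of the period genes stand beside these. In gonads per1b was 17.2 to 20.7 TPM in testes and 19.9 to 26.6 TPM in ovary (log2 fold change -0.61 ± 0.20, adjusted p 0.056), and per3 had a log2 fold change of -0.02 ± 0.50. Whether brain and gonad differ in this was not tested.

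**Figure D2:**
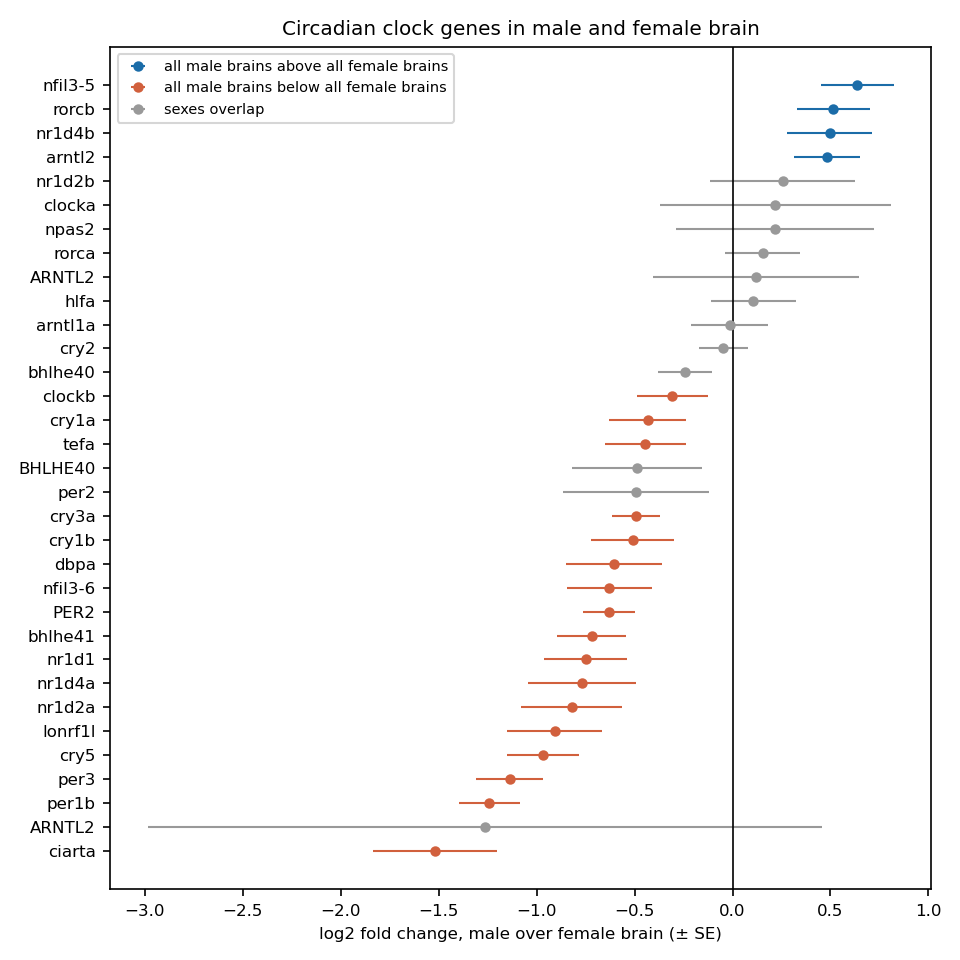
Log2 fold change of male over female brain, with its standard error from edgeR, for the 33 clock genes, sorted by size. Of these, 17 have every male brain below every female brain and 4 have every male brain above, against 10.9% and 4.4% of all genes. ARNTL2 is the symbol of 2 genes. The hour at which each brain was taken is not given, so sex and hour cannot be told apart.

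Genes induced by nerve activity gave few members whose sexes did not overlap. Of 32 immediate early genes tested 0 were called in edgeR, 2 were lower at an unadjusted p under 0.05 and 3 (npas4a, fosab and JUN) were lower in every male brain, against 4.23% and 10.9% over all genes, so these counts were near the shares of all genes. npas4a, a transcription factor of active neurons, had 14.1, 17.5 and 13.1 TPM in male brains, against 57.5, 26.3 and 27.3 TPM in female brains (log2 fold change -1.28 ± 0.36, adjusted p 0.734). fosab had 16.22, 9.003 and 9.854 TPM in male brains and 24.0, 28.9 and 22.0 TPM in female brains (log2 fold change -1.03 ± 0.27, adjusted p 0.734). The list's sum overlapped between the sexes, with 1092, 1017 and 851 TPM in male brains and 1978, 1231 and 1070 TPM in female brains (exact p = 0.2). egr1, a transcription factor induced by activity, had 129.5, 139.3 and 90.6 TPM in male brains and 380.6, 163.8 and 127.2 TPM in female brains, so that female brain 1 was the highest. Without both libraries numbered 1, 16 of the 32 genes were lower in every male brain, against 26.9% of all genes in the same 4 libraries.

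Of the neuronal genes 12 had a log2 fold change below 0 and 4 above (median -0.28), and of the radial glial genes 4 below and 11 above (median 0.25), against a median of 0.00 over all genes tested. The neuronal list summed to 6257, 7268 and 7518 TPM in male brains and 7557, 7874 and 7679 TPM in female brains (exact p = 0.1, adjusted p = 0.733), with the lowest value in male brain 1. Of its 16 tested genes 4 were lower at an unadjusted p under 0.05, against 4.23% of all genes, and 6 lay below every female brain, against 10.9%. Without both libraries numbered 1 there were 7 below and 1 above, against 26.9% and 15.4% of all genes. Among the 6 was stxbp1a, a partner of the synaptic fusion machinery, with 248.4, 293.9 and 287.7 TPM in male brains and 418.6, 359.9 and 379.7 TPM in female brains (log2 fold change -0.45 ± 0.11, edgeR adjusted p 0.734). Of the radial glia and astroglia list 15 genes were tested, and in male brain 3 lay above and 1 below every female brain, against 4.4% and 10.9% of all genes. Without both libraries numbered 1 these were 5 above and 1 below, against 15.4% and 26.9%. gfap, the intermediate filament of radial glia, had 265.4, 303.7 and 447.9 TPM in male brains and 138.0, 251.5 and 201.0 TPM in female brains (log2 fold change 0.87 ± 0.28, edgeR adjusted p 0.734). cx43, a gap junction protein of the same cells, had 46.1, 50.4 and 76.9 TPM in male brains and 93.3, 86.8 and 84.1 TPM in female brains (-0.54 ± 0.23), the opposite order to gfap and fabp7a.

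Myelin genes overlapped between the sexes. The 16 tested genes had 0 calls in edgeR. At an unadjusted p under 0.05 there were 0, against 2.55% higher and 4.23% lower over all genes. Without overlap there were 0 too, against 4.4% higher and 10.9% lower. Whether 0 of 16 departs from these shares was not tested. The sum of the myelin list was 4950, 10227 and 9933 TPM in male brains against 5464, 7690 and 6884 TPM in female brains. Microglia and macrophage genes summed to 2149, 1445 and 1401 TPM in male brains and 1062, 1284 and 1251 TPM in female brains, which did not overlap (exact p = 0.1, adjusted p = 0.733). In that list 4 of the 11 tested genes lay above every female brain, against 4.4% of all genes, and 6 did so without both libraries numbered 1, against 15.4%. The 4 included cd74b, the invariant chain of antigen presentation, with 1427, 515.6 and 513.4 TPM in male brains and 420.8, 469.9 and 447.6 TPM in female brains, and spi1b, the master transcription factor of myeloid cells, with 11.6, 8.90 and 8.80 TPM in male brains and 6.02, 7.36 and 7.12 TPM in female brains (log2 fold change 0.60 ± 0.18, edgeR adjusted p 0.734). In male brain 1 cd74b alone gave 1427 of the 2149 TPM of the list. Immune response genes were high in that same library, with 22.9 TPM of the peptide transporter tap1 and 32.9 TPM of the proteasome subunit psmb10, against at most 5.36 and 4.09 TPM in the other 5 brains.

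No gene of sex steroid synthesis and reception was called in edgeR, as for all genes. Of 36 names 27 matched genes and 22 reached 1 TPM in a brain. None of the 18 tested genes had an unadjusted p under 0.05, against 2.55% higher and 4.23% lower over all genes. In so few genes this count was near the shares of all genes. The oestrogen receptor esr1 had 3.18, 1.50 and 2.86 TPM in male brains and 2.12, 2.88 and 4.65 TPM in female brains (log2 fold change -0.27 ± 0.45). srd5a2b, a steroid reductase, was the 1 tested gene higher in every male brain, against 4.4% of all genes. It had 3.47, 3.62 and 4.16 TPM in male brains and 1.50, 3.30 and 3.26 TPM in female brains (0.57 ± 0.33). gper1, a membrane oestrogen receptor that was not tested, had 29.7, 2.51 and 2.61 TPM in male brains and 1.202, 2.363 and 1.591 TPM in female brains, and only male brain 1 stood far off. star, which carries cholesterol to the steroid-making enzymes, had 6.15, 11.9 and 13.9 TPM in male brains, against 7.38, 9.81 and 8.34 TPM in female brains (0.42 ± 0.33). hsd17b3, a testosterone-forming enzyme, had 20.9, 20.9 and 18.4 TPM in male brains and 16.0, 15.6 and 26.4 TPM in female brains (0.15 ± 0.27). Hypothalamic neuropeptide genes gave 0 calls, and 0 of 30 tested at an unadjusted p under 0.05, against the same 2.55% and 4.23%. Of them 1, CARTPT, was lower in every male brain, against 10.9% of all genes. Levels of these neuropeptide genes varied widely from brain to brain.

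Ribosomal protein genes stood higher in male brain together. This list, of genes with an rpl or rps symbol, was chosen after the values were seen, and its 81 tested genes had a median log2 fold change of 0.24, with 80 above 0 and 1 below. edgeR called 0 of them, 37 were higher and 1 lower at an unadjusted p under 0.05, and 54 were higher in every male brain, against 2.55%, 4.23% and 4.4% over all genes. Their summed TPM was 163577, 171365 and 161603 in male brains, against 143438, 138898 and 144789 in female brains, so the sexes did not overlap, which is a description of genes chosen for their values. rps7 had 3762, 3849 and 4143 TPM in male brains and 3318, 3247 and 3255 TPM in female brains (log2 fold change 0.30 ± 0.09, unadjusted p 0.0185). Without both libraries numbered 1 the median was 0.23. This small shift was of 0.20 to 0.27 in all alternatives run.

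**Figure D3:**
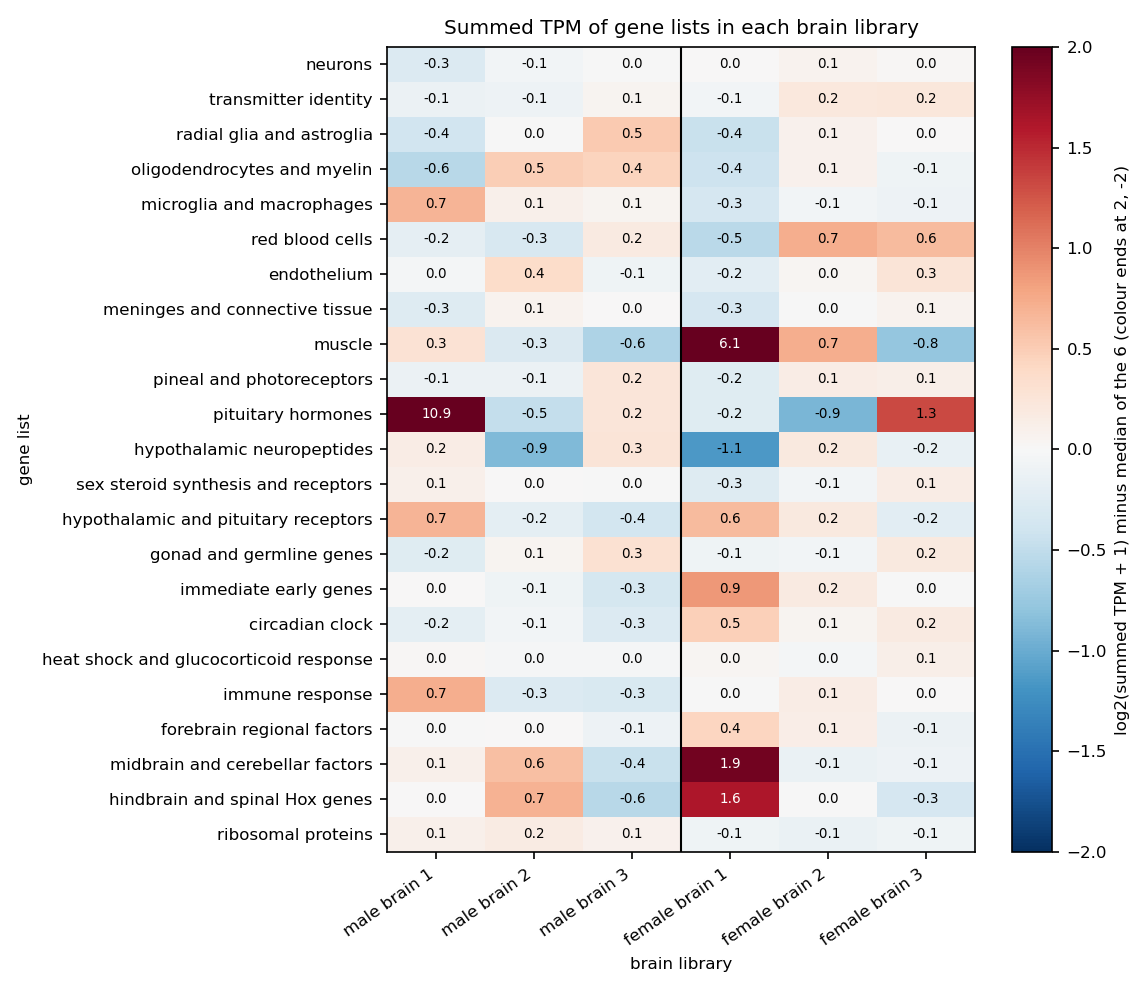
Summed TPM of 22 gene lists and of the ribosomal proteins (chosen after the values were seen), as log2(summed TPM + 1) minus the median of the 6 libraries. Columns are libraries, male brains left and female brains right of the line, and colour stops at 2 and -2. The largest departures are those of single libraries: pituitary hormones in male brain 1 and muscle in female brain 1.

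Single brains differed widely in genes of brain regions, of pituitary and of muscle. Among 10706 genes with a mean of at least 10 TPM, the median SD of log2(TPM + 1) within sex was 0.225, and 5937 genes (55.5%) had an SD under 0.25. At the other end, 488 genes (4.56%) had an SD above 1, and 196 without both libraries numbered 1. Neuronal genes (0 of 15), myelin genes (0 of 13) and clock genes (0 of 24) held no such gene, which was near the 4.56% of all genes. Nor did the lists of microglia, red blood cells, endothelium, connective tissue, photoreceptors or immune response. The red blood cell list does not hold the symbol HBE1, however. A second HBE1 gene, ENSACLG00000016316, ran from 63.1 TPM in female brain 1 to 1509 TPM in male brain 1. The median SD was 0.269 for neuronal, 0.484 for myelin and 0.216 for clock genes, against 0.225 over all genes. Forebrain regional factors (16 of 22), hypothalamic neuropeptides (19 of 30) and midbrain and cerebellar factors (14 of 25) held many. So did pituitary hormone genes (9 of 9) and muscle genes (7 of 8). Such genes can reach a mean of 10 TPM through 1 library alone, and a wide spread then follows from the minimum itself. All these counts are a description and carry no test.

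The widest spread of all belonged to pituitary hormones in male brain 1. Both prl genes, which encode prolactin, had 9466 and 5109 TPM in that brain and no more than 3.11 and 2.49 TPM in any other. pomca, the precursor of corticotropin and melanotropin, had 10555 TPM in it and at most 4.63 TPM elsewhere. The gonadotropin genes lhb and cga had 7001 and 7724 TPM, gh1 (growth hormone) had 3592 TPM, smtla (somatolactin) had 3209 TPM and tshba (thyrotropin) had 913 TPM, against at most 5.00, 3.53, 0.267, 0 and 1.23 TPM in the other brains. The pituitary transcription factor pou1f1 had 323 TPM against at most 0.852 TPM. The second pomca gene, ENSACLG00000012942, was instead at 32.8 TPM in female brain 3 and 11.98 TPM in male brain 3, and at no more than 0.669 TPM in the other 4. The gonadotropin-releasing hormone receptor gnrhr2 had 85.4 TPM in male brain 1 and at most 4.29 TPM in the other 5. A sex difference in a pituitary gene and the pituitary RNA of this 1 library cannot be told apart here.

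Hypothalamic neuropeptides were near 0 in some brains and abundant in others of the same sex. oxt, the precursor of the oxytocin-type peptide isotocin, had 531, 0.746 and 620 TPM in male brains and 0, 413.7 and 110.7 TPM in female brains. avp, that of vasotocin, followed the same pattern, with 361, 0.824 and 278 TPM in male brains and 0.184, 166 and 44.6 TPM in female brains. Both peptides were near 0 in male brain 2 and female brain 1, 1 brain of each sex. pmchl, a melanin-concentrating hormone precursor, had 22.8, 4.53 and 1175 TPM in male brains and 0, 132 and 374.5 TPM in female brains, and galn, the galanin precursor, had 93.5, 13.1 and 201.3 TPM in male brains and 0.497, 123 and 99.7 TPM in female brains. gnrh2, made by neurons of the midbrain, was the reverse for male brain 1, with 0, 39.5 and 57.5 TPM in male brains and 36.3, 100.4 and 138.8 TPM in female brains. The peptide precursors cart1 and CARTPT were also lowest in male brain 1, with 0 and 3.58 TPM there and at least 12.9 and 49.2 TPM in the other brains.

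Factors of the telencephalon and of the cerebellum gave a similar picture. tbr1b, a transcription factor of pallial neurons, had 47.9, 0.929 and 0.894 TPM in male brains and 11.2, 33.7 and 2.49 TPM in female brains. foxg1a, which marks the telencephalon, had 9.21, 0 and 0.246 TPM in male brains and 2.69, 7.91 and 0 TPM in female brains, so male brain 1 and female brain 2 were high and male brains 2 and 3 and female brain 3 were near 0 for both genes. The neuropeptide gene npy was high in the same 2 brains, at 794.5 TPM in male brain 1 and 565 TPM in female brain 2, against 65.5 to 120.2 TPM in the others. zic1, a factor of cerebellar granule cells, had 357.5, 477 and 143.8 TPM in male brains and 2020, 245.8 and 193 TPM in female brains, and cbln12, of the cerebellin family, had 436, 684 and 96.3 TPM in male brains and 2410, 227.4 and 165.4 TPM in female brains. Female brain 1 was the highest in both. It was the lowest for the single regional factors tcf7l2 (2.56 TPM), emx2 (1.60 TPM), pax7a (4.29 TPM) and gata3 (9.30 TPM). The other 5 brains had at least 20.5, 14.5, 30.0 and 43.0 TPM of them. The sums of the lists that hold these factors went the other way, with female brain 1 the highest in both. Forebrain factors summed to 1310 TPM in it and 889 to 1060 TPM in the others. Midbrain and cerebellar factors summed to 7048 TPM in it and 1354 to 2798 TPM in the others. slc17a7b, a vesicular glutamate transporter, was 772 TPM in female brain 1 and 53.3 to 203.3 TPM in the others, while gad1b, a GABA-forming enzyme, was 113.5 TPM there and 354.1 to 565.8 TPM in the others.

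**Figure D4:**
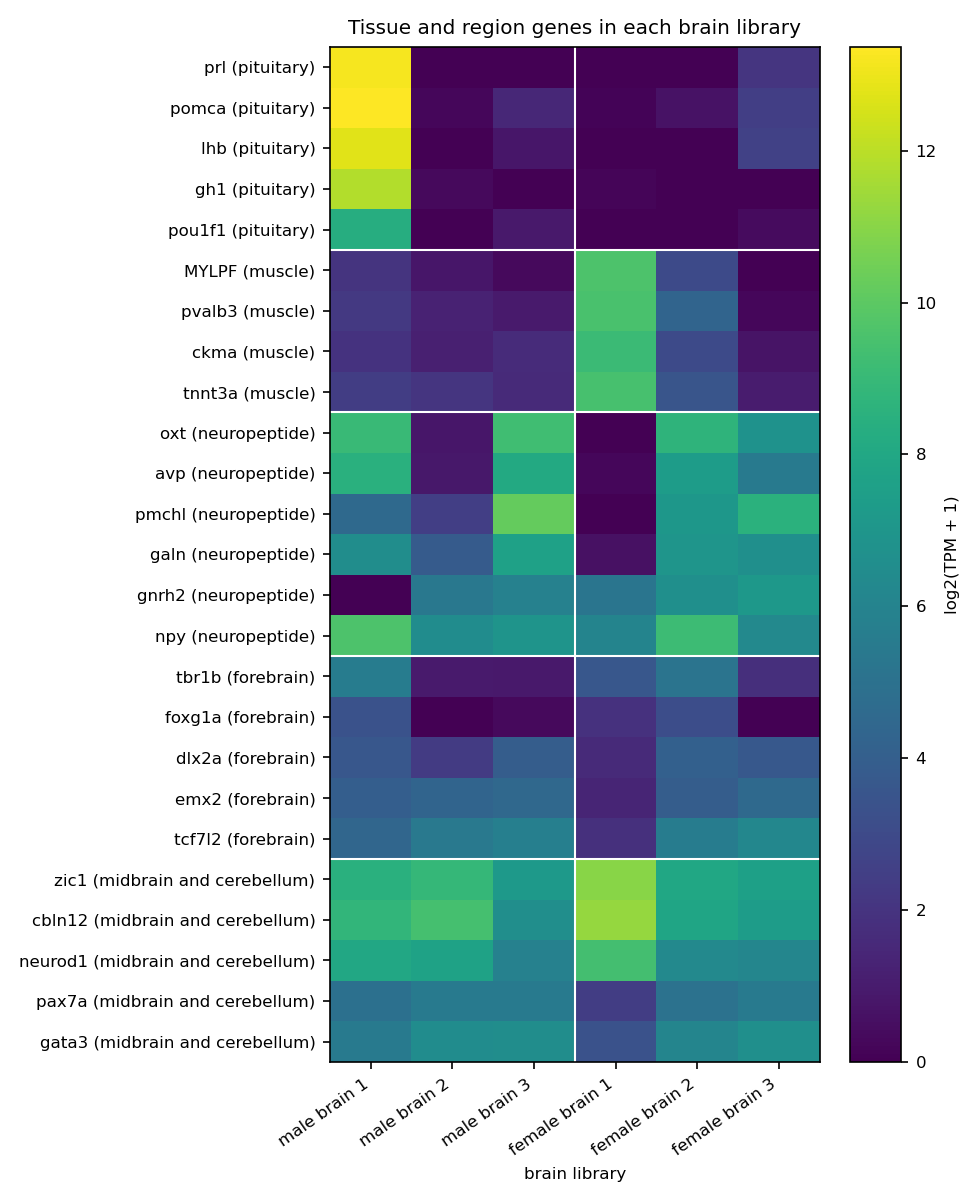
log2(TPM + 1) of pituitary, muscle, neuropeptide, forebrain, midbrain and cerebellar genes in each brain library, male brains left and female brains right of the line. prl, gh1 and lhb are high in male brain 1 alone and muscle genes in female brain 1, while oxt and avp are near 0 in male brain 2 and female brain 1.

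Skeletal muscle transcripts were found in female brain 1. MYLPF, a fast myosin light chain, had 807 TPM in it and at most 7.11 TPM in any other brain. pvalb3, a muscle parvalbumin, had 731 TPM against at most 18.5 TPM, tnnt3a, a fast troponin T, 712 TPM against at most 10.7 TPM, and ckma, the muscle creatine kinase, 552 TPM against at most 6.95 TPM. In each of these 4 genes female brain 2 held the second value, a trace next to female brain 1. The calcium pump atp2a1l, also of muscle, had 248.5 TPM in female brain 1 and at most 0.909 TPM in the others. With atp2a1l, the genes furthest above in female brain 1 were ENSACLG00000017693 and ENSACLG00000015618. They had 509.5 and 273.8 TPM in it, against at most 2.44 and 1.59 TPM in the others. The hindbrain and spinal list holds Hox genes and a few other factors, and 7 of its 38 genes reached 1 TPM in any brain. mafba, a segment factor of the hindbrain that is not a Hox gene, was the only one of them above 6 TPM. It had 26.7, 50.7 and 13.3 TPM in male brains and 95.8, 26.8 and 21.6 TPM in female brains.

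Counted over 16413 genes with a mean of at least 2 TPM, female brain 1 stood highest by over 1 log2 unit above the next brain in 453 genes and lowest in 705. Male brain 1 stood highest alone in 272 genes and lowest in 57. The other 4 libraries stood highest alone in 35 genes (male brain 2), 7 (male brain 3), 37 (female brain 2) and 19 (female brain 3). The genes furthest above in male brain 2 were ENSACLG00000006981, at 13.9 TPM and listed at 0 in the other brains, ENSACLG00000012548, at 12.1 TPM and likewise at 0 elsewhere, and crybb1l1, a crystallin, at 43.6 TPM against at most 6.47 TPM. In male brain 3 they were NANS with 13.5 TPM, si:dkeyp-38g8.5 with 14.3 TPM and pmchl. In female brain 2 they were ENSACLG00000010322 with 62.0 TPM, ENSACLG00000005804 with 18.1 TPM and si:ch211-129p13.1 with 17.9 TPM, each listed at 0 in the other 5 brains. TPM is scaled by transcript length, so few reads on a short transcript can give such values. Counts of the genes listed at 0 in the other brains are not given here. In female brain 3 the genes furthest above were ly75, an endocytic receptor of antigen-presenting cells, with 121.1 TPM against at most 6.42 TPM, ENSACLG00000024015 with 12.6 TPM and ENSACLG00000023649 with 82.4 TPM. The same brain had 126.8 TPM of fkbp5 and 52.2 TPM of cebpd, against at most 78.4 and 20.96 TPM in the others. Both are of the heat shock and glucocorticoid response list and were picked out after their values were seen. That list summed to 3238 TPM in female brain 3 and 2897 to 3045 TPM in the others.

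**Figure D5:**
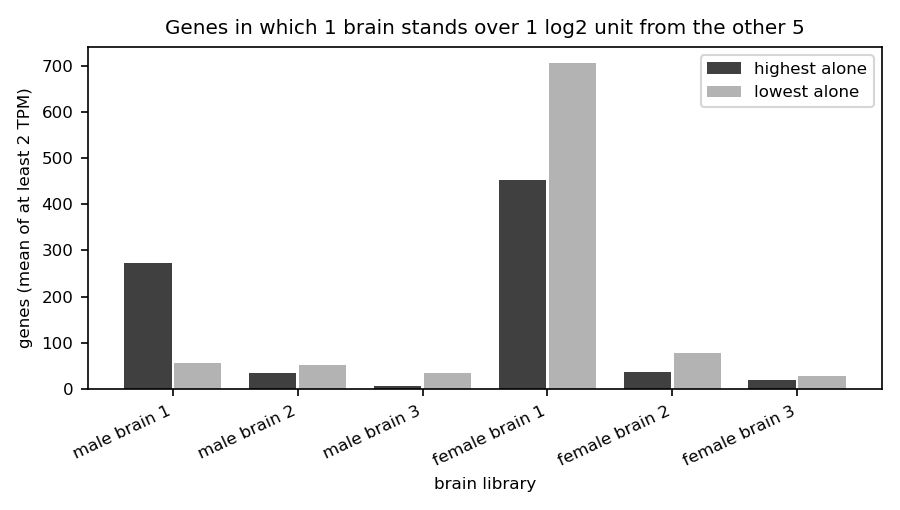
Number of genes (mean of at least 2 TPM over the 6 brains) in which 1 brain lies over 1 log2 unit above or below all other 5, by library, male brains left. Female brain 1 has 453 genes above and 705 below and male brain 1 has 272 above, while each of the other 4 has between 7 and 79.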

How the data were processed

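Estimated counts per gene and TPM were deposited by the authors, who trimmed reads with Trimmomatic 0.39 and quantified them with Salmon 1.5.1 against the A. calliptera annotation, with corrections for sequence and GC bias. The deposited TPM values were handled as a score per gene. The authors' tables repeat some rows: 382 repeated rows were dropped, which left 26977 genes, of which 16908 carry a symbol, and 1531 genes share theirs with another gene. The deposited estimated counts were whole (within 0.001) in 83.1% of brain values and were rounded before testing. Columns of the authors' group means were not used.

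Male and female brain were compared with edgeR's quasi-likelihood test (edgeR 4.0.16, robust, TMM, filterByExpr, Benjamini-Hochberg adjustment, called under 0.05), with standard errors derived from the log2 fold change and its F statistic. DESeq2 1.42.0 and limma 3.58.1 were alternatives. Nothing in the labels links brains of equal number, and p-values measure only the spread between these samples. List sums were tested by exact permutation over libraries. Coordinates and sequences were not used here. All scripts that test many genes were tested on simulated data.

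Named were the 5 genes with the lowest p in each direction (fewer than 5 being called, while 12 called genes per direction would have been named otherwise), the 20 most abundant, the most variable of 20 ranked by SD, the 3 standing highest in each library and members of the lists. The comparison, the lists and the rules were chosen with earlier results of these data known.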

Additional observations from a re-analysis of the deposited data

Results flagged for a closer look

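Of 30 groups of values checked, 5 held 1 library far from the others of its group. Chance was taken to pick out about 1 group in 20, and whether 5 of 30 exceeds this was not tested. si:dkey-238d18.5 (ENSACLG00000000046) had 51.5 TPM in ovary 4, against 0.385, 3.48 and 1.02 TPM in ovaries 1, 2 and 3. ENSACLG00000002883 had 405.1 TPM in testes 4 and 155.1 to 185.4 TPM in the other testes libraries. NANS had 41.3 TPM in testes 2, against at most 4.22 TPM in the other testes libraries, and 15.4 TPM in ovary 4, being listed at 0 in the other ovaries. In brain too the highest NANS value, 13.5 TPM, belonged to 1 library, male brain 3. ENSACLG00000026059 had 0.858 TPM in ovary 4 and was listed at 0 in the other ovaries.

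In 2 of the genes with the lowest p in brain, the log2 fold change of testes over ovary had the opposite sign to that of the brains. In both genes every male brain lay below every female brain. prrc2c had a log2 fold change of testes over ovary of 0.60 ± 0.29 and was not called there (edgeR adjusted p 0.177). srcap had one of 0.94 ± 0.28 (edgeR adjusted p 0.0424). Ovary 1 was the lowest gonad library in both genes. For prrc2c it had 7.83 TPM, against 24.9 to 34.7 TPM in the other ovaries and 37.8 to 43.2 TPM in testes. In ovary 1 11124 genes reached 1 TPM, against 14355 to 15909 in the other ovaries. The difference between brain and gonads was not tested.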

How the results depend on the processing

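edgeR called 0 genes between male and female brain in every alternative run, with 564 to 1786 genes at an unadjusted p under 0.05. DESeq2 called 39 genes, and 110 without both libraries numbered 1. The cause was not tested. The 10 genes with the lowest p kept their direction in all 160 values under alternatives, and 19 of these values passed the threshold, all in DESeq2. These genes were chosen for their low p in the same brains, and in none did the sexes overlap. Their direction could therefore hardly change. The equal replicate numbers of the sexes were not taken to pair the brains: deviations of same-numbered libraries correlated at 0.07, -0.23 and 0.23, and a fit with the replicate block called 0 genes, with 794 at an unadjusted p under 0.05. The 3 lists whose sums did not overlap between the sexes became 1 with the median over list genes. They numbered 3 to 7 with 1 library left out (7 without female brain 3) and 8 without both libraries numbered 1. Leaving out a library cannot make such sums overlap, so these numbers could only stay or rise. Genes with an SD above 1 numbered 488, against 295 with a pseudocount of 5, 1191 with a minimum of 1 TPM and 196 without both libraries numbered 1. The abundant genes shared 3 of 20 with those by CPM and 18 to 19 with 1 library left out. Calls in gonads at the genes with the lowest p in brain ranged between 1 and 5 of 10 with 1 gonad library left out. With 3 brains of each sex an exact test of a sum cannot go below 0.1, and genes of low counts in the shallower libraries are the least certain.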
